A study of Mus musculus with 18 samples.

Results

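Cholesterol and fatty acid synthesis was followed in sorted mouse peritoneal macrophages through 33 genes, out of 23511 in the deposited count table. The genes were taken by symbol from the known steps of the pathways, with earlier results of these data known, and all 33 were found. Of the 33, 8 encode the mevalonate steps to squalene, 10 the steps from squalene to cholesterol, 6 regulators of the sterol regulatory element binding proteins (SREBP) and a sterol carrier, and 9 fatty acid synthesis, elongation and desaturation. All 33 passed the filter on low counts, as did 16609 genes in all.

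Cholesterol is built from acetyl-CoA through mevalonate, squalene and lanosterol, and fatty acids from the same acetyl-CoA through malonyl-CoA. Both routes are under the SREBP transcription factors: when membrane sterol is low, Scap escorts the precursor proteins from the endoplasmic reticulum to the Golgi, where they are cleaved, and when sterol is ample the Insig proteins hold Scap back. SREBP-2 acts mainly on sterol genes and SREBP-1c mainly on fatty acid genes, while oxysterols, through LXR, drive cholesterol export. In macrophages these routes set membrane composition and are remodelled when cells take up lipid or are activated.

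Macrophages were sorted as Tim-4low or Tim-4high, Tim-4 being the phosphatidylserine receptor that marks resident cavity macrophages, from 3 kinds of mice: without a tumor, with MC38-LG colon carcinoma cells placed in the peritoneal cavity and an isotype antibody, and with the same tumor and anti-Tim-4. The anti-Tim-4 antibody was given on day 7 after tumor challenge, the cells were collected on day 10, and mice without a tumor were collected on the same day. The sources used here do not state strain, sex, age or antibody dose. Each of the 6 groups had 3 libraries of bulk RNA-seq, called triplicates without saying whether they came from separate mice, so p-values reflect a sample-to-sample spread that may be technical in part or whole. In bulk RNA, fewer cells of a type and less RNA per cell cannot be told apart.

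Libraries held 24530070 to 34110392 estimated gene counts. Levels are given as CPM, counts scaled to each library's TMM-adjusted size. Groups are called apart where every library of one lay above every library of the other. The share of all genes with such a separation is not given, so it only describes the values of the gene named. The summed level of 8 macrophage markers (Adgre1, Itgam and Csf1r among them) ran from 17600 to 45700 CPM and was highest in Tim-4high cells without a tumor (36900 to 45700 CPM). Timd4, which encodes Tim-4, stood at 168.6 to 885.9 CPM in the Tim-4high libraries and at 9.13 to 108.5 CPM in the Tim-4low libraries, and the groups kept apart within each condition. Some libraries stood apart. Library 1 of both populations without a tumor carried 728 and 225 CPM of 5 summed B cell markers, against 63.4 to 93.8 CPM in the other 4 libraries without a tumor, and its Tim-4low sample was the one with 108.5 CPM of Timd4. Library 3 of both isotype groups carried 85.5 and 76.0 CPM of 8 summed T and NK cell markers, against 9.75 to 17.4 CPM in the other 4 isotype libraries. Its Tim-4low sample also held 75.44 CPM of Timd4, against 14.49 and 10.99 CPM in isotype Tim-4low libraries 1 and 2. Results that lose their call without these pairs of libraries are given both ways. Where the markers move with a result, their part in it was not tested.

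Levels per kilobase of transcript, which allow genes to be compared with each other, differed widely. Acly, ATP citrate lyase, which makes cytosolic acetyl-CoA from citrate, was first by a wide margin, with a mean of 597.1 CPM per kilobase over the 18 libraries and a range of 170.6 to 1229. The next were Ebp, a sterol isomerase, at 26.5, Insig1 at 26.3, Srebf2, which encodes SREBP-2, at 25.4 and Srebf1, which encodes SREBP-1, at 24.2 CPM per kilobase. The 2 lowest were Elovl6, a fatty acid elongase, at 0.618 and Fads2, a desaturase of polyunsaturated fatty acids, at 0.219 CPM per kilobase.

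Promoter windows of 300 bases, from 250 before to 50 after the annotated start (RefSeq, GRCm38.p6), were available for 26 of the 33 genes. Windows are shown for 6 genes whose level was higher in Tim-4low cells without a tumor and for Acly, which was lower there. Capitals mark matches of TCACNCCAC, a form of the sterol regulatory element, and of CCAAT, the site of NF-Y, on either strand, so that CCAAT on the other strand reads ATTGG. The windows lie at chr13:119690101-119690400 (Hmgcs1, plus strand), chr13:8885356-8885655 (Idi1, plus), chr5:4104648-4104947 (Cyp51, minus), chr8:64733529-64733828 (Msmo1, minus), chr5:28071162-28071461 (Insig1, plus), chr15:82147019-82147318 (Srebf2, plus) and chr11:100527951-100528250 (Acly, minus), and each is written 5′ to 3′ along the gene.
Hmgcs1: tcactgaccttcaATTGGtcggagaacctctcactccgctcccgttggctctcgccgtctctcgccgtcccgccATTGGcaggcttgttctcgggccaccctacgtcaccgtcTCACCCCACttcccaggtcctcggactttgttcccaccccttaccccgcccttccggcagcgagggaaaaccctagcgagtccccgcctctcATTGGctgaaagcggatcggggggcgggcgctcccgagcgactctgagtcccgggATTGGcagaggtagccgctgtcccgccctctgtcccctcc
Idi1: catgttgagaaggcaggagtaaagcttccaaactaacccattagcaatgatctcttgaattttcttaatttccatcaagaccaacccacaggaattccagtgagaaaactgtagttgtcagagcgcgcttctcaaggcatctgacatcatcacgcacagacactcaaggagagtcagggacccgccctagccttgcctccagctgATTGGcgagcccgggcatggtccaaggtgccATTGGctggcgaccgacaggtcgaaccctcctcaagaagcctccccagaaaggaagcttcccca
Cyp51: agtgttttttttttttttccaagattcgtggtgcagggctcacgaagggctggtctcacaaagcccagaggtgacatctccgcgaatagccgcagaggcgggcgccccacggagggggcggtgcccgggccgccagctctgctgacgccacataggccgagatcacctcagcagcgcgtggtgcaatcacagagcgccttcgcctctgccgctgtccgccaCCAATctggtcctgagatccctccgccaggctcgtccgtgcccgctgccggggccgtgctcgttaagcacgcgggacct
Msmo1: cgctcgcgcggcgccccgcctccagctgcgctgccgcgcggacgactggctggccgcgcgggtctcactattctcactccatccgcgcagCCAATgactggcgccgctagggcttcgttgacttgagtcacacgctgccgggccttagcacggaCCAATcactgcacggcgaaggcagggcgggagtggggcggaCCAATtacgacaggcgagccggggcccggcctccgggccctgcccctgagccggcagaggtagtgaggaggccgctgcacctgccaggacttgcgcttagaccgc
Insig1: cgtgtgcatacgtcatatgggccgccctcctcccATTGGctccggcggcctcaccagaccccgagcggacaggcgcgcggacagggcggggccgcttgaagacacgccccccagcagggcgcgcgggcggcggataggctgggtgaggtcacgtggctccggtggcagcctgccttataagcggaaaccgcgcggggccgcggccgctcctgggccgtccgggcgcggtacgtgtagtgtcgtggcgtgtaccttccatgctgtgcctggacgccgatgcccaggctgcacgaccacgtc
Srebf2: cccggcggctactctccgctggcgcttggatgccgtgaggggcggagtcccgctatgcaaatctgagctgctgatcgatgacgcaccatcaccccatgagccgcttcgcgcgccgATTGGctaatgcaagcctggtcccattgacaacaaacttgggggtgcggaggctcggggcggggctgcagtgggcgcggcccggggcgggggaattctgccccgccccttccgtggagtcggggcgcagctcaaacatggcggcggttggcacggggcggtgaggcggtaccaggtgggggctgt
Acly: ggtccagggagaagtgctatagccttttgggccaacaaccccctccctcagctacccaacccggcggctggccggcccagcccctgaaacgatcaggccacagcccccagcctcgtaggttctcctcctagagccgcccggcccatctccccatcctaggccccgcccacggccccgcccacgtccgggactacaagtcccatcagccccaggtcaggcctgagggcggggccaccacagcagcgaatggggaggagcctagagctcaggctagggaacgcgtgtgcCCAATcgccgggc

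Of the sequences shown, Msmo1 and Hmgcs1 carry several CCAAT matches and Hmgcs1 alone carries TCACNCCAC. Insig2, Dhcr7, Srebf1, Pmvk and Scap have 2 or 3 windows each, for alternative starts, and a gene was counted if any of its windows held the motif, so genes with more windows have more chances of a match. TCACNCCAC was found in 1 of the 26 genes, Hmgcs1 (3.85%), against 1.36% of 10678 tested genes in the table. A longer form of it, with A in front and C at the open base, was found in none of the 26 and in 0.0468% of tested genes. CCAAT was found in 21 of 26 genes (80.8%) against 42.8% of tested genes, and GGGCGG, the GC box of Sp1, in 22 of 26 (84.6%) against 65.7%. CACGTG, the E-box, was found in 5 genes (19.2%), Dhcr7, Hsd17b7, Insig1, Sc5d and Scap, against 11.5% of tested genes. All were searched on both strands, and the longer sterol element always contains the shorter one. A match is a run of letters and not a measured site, and no match says only that these letters are not in the window.

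**Figure D1:**
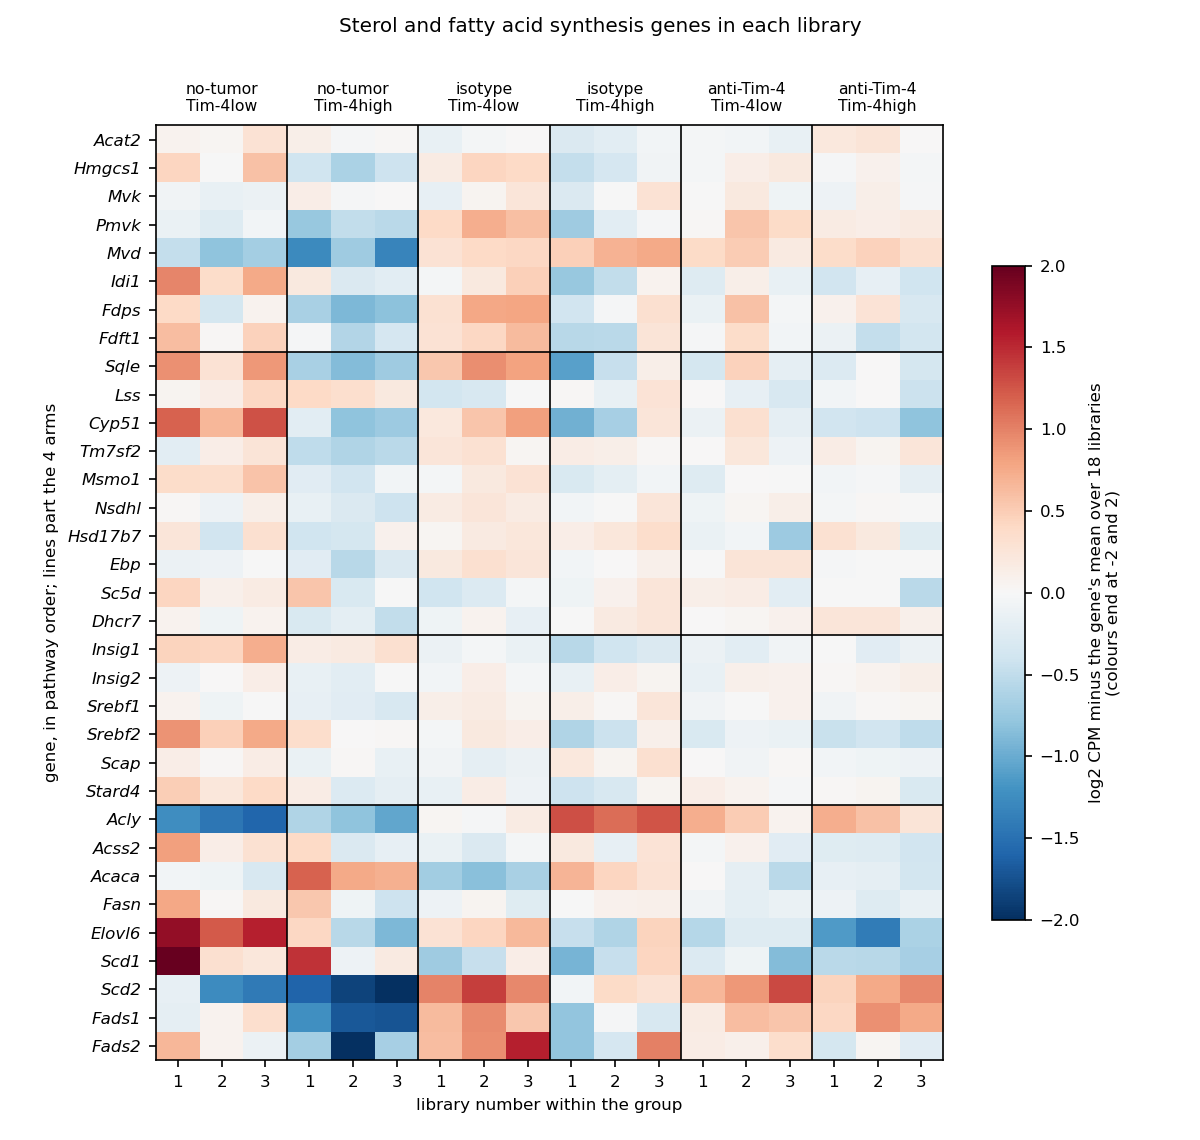
Heatmap of log2 CPM of the 33 genes (rows, in pathway order, with lines between the 4 arms) in the 18 libraries (columns, 3 per group), each gene shown as the difference from its own mean over all libraries. Acly, Scd2 and Mvd are low in the 6 libraries without a tumor, and Scd1 is far above its mean in library 1 of both populations without a tumor. Cyp51 has its highest group mean in Tim-4low cells without a tumor, although isotype Tim-4low library 3 lies above the lowest library of that group.

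The first comparison asked how the Tim-4low and Tim-4high populations differ in mice without a tumor. Sterol synthesis genes were higher in Tim-4low cells along most of the pathway. Acly, which makes acetyl-CoA for both routes, and Acaca, which makes malonyl-CoA for fatty acids, were lower. Of the 33 genes, 19 rose and 2 fell in Tim-4low over Tim-4high (edgeR quasi-likelihood test, Benjamini-Hochberg adjusted p under 0.05 over 16609 genes), where 24.6% of all genes tested were called, 12.8% higher and 11.8% lower. The median log2 fold change was 0.44 over the 33 genes and 0.02 over all genes tested. By arm, 5 of 8 mevalonate genes, 7 of 10 genes from squalene to cholesterol, 4 of 6 regulators and 3 of 9 fatty acid genes rose, and both falls were in the fatty acid arm.

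Among the mevalonate genes, Hmgcs1, the cytosolic synthase that makes HMG-CoA, stood at 44.7, 32.9 and 49.9 CPM in Tim-4low libraries 1 to 3 and at 25.3, 21.3 and 24.9 CPM in Tim-4high libraries. The lowest Tim-4low library was above the highest Tim-4high library, a log2 fold change of 0.84 (SE 0.14, adjusted p = 0.000408, 1.78-fold). Idi1, which isomerises isopentenyl diphosphate, stood at 32.9, 21.7 and 28.3 against 19.2, 13.7 and 14.5 CPM. Its groups did not overlap either (log2 0.81, SE 0.21, adjusted p = 0.00901). Fdps, which builds farnesyl diphosphate, stood at 13.9, 8.24 and 11.1 against 6.72, 5.65 and 5.92 CPM (log2 0.86, SE 0.24, adjusted p = 0.0167). Fdft1, squalene synthase, stood at 13.2, 8.74 and 11.8 against 8.41, 5.72 and 6.79 CPM (log2 0.69, SE 0.22, adjusted p = 0.0338). Both were higher in every Tim-4low library, although Fdft1 shares 774 exonic bases with Ctsb on the opposite strand, a gene with a mean of 107900 counts, and the use of strand in counting is not given in the sources used here. Mvd, the mevalonate diphosphate decarboxylase, rose by 0.43 with overlapping groups, and Acat2, Mvk and Pmvk were not called, at 0.10, -0.16 and 0.45.

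The steps after squalene held the largest differences of the sterol arms. Sqle, squalene epoxidase, a rate-controlling oxygen-using step, stood at 18.4, 11.8 and 17.7 CPM in Tim-4low and 6.20, 5.33 and 5.92 CPM in Tim-4high libraries. Every Tim-4low library was thus well above every Tim-4high one (log2 1.46, SE 0.27, adjusted p = 0.000932, 2.74-fold). Cyp51, lanosterol demethylase, stood at 35.1, 24.5 and 37.1 against 13.4, 8.80 and 9.28 CPM, the widest ratio of the arm at 3.07-fold (log2 1.62, SE 0.28, adjusted p = 0.000563). Msmo1, the C4-methylsterol oxidase, stood at 25.7, 25.1 and 29.5 against 16.9, 15.2 and 19.1 CPM (log2 0.65, SE 0.11, adjusted p = 0.000491). Tm7sf2, a sterol C14 reductase, stood at 4.60, 5.86 and 6.37 against 3.74, 3.51 and 3.66 CPM (log2 0.63, SE 0.13, adjusted p = 0.00287). The groups of Cyp51, Msmo1 and Tm7sf2 did not overlap. Exons of Tm7sf2 overlap those of Vps51 by 532 bases on the same strand, and those of Cyp51 overlap Akap9 by 166 bases on the opposite strand. Nsdhl, Ebp and Dhcr7 rose by 0.29, 0.28 and 0.34, and Lss, Hsd17b7 and Sc5d were not called, at -0.11, 0.30 and 0.11.

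The regulators moved less. Srebf2 stood at 200.4, 148.3 and 180.1 CPM in Tim-4low and 136.9, 107.4 and 108.7 CPM in Tim-4high libraries, higher in every Tim-4low library (log2 0.58, SE 0.15, adjusted p = 0.0112). Insig1, itself a well-known SREBP target, stood at 92.3, 91.4 and 111.5 against 75.2, 76.5 and 84.1 CPM (log2 0.32, SE 0.09, adjusted p = 0.0144). Stard4, a cytosolic sterol carrier, stood at 28.0, 23.2 and 26.3 against 22.0, 16.3 and 17.5 CPM (log2 0.47, SE 0.14, adjusted p = 0.021). Each of these 3 genes kept its groups apart. Srebf1 stood at 79.3, 71.3 and 74.9 against 67.8, 64.6 and 60.7 CPM (log2 0.22, SE 0.07, adjusted p = 0.0278), the smallest called rise of the list. Insig2 and Scap were not called, at 0.14 and 0.19.

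Within the fatty acid arm the genes split. Acly stood at 829.5, 721.1 and 647.6 CPM in Tim-4low against 1288, 1120 and 947.6 CPM in Tim-4high libraries, lower in every Tim-4low library (log2 -0.61, SE 0.16, adjusted p = 0.0115). Acaca, acetyl-CoA carboxylase 1, which makes malonyl-CoA, stood at 130.9, 128.1 and 108.4 against 305.9, 229.6 and 222.8 CPM (log2 -1.05, SE 0.15, adjusted p = 0.000111). Fasn, the synthase that uses malonyl-CoA, overlapped between groups and was not called, at 0.30. The genes that elongate and desaturate fatty acids went the other way. Fads1, the delta-5 desaturase, stood at 9.17, 10.8 and 13.1 against 4.45, 3.20 and 3.13 CPM (log2 1.62, SE 0.22, adjusted p = 6.84e-05), and Elovl6 at 9.28, 6.39 and 8.02 against 3.62, 1.86 and 1.47 CPM (log2 1.77, SE 0.32, adjusted p = 0.000875). Scd2, a stearoyl-CoA desaturase, rose by 1.15. Acss2, Scd1 and Fads2 were not called, at 0.44, 1.07 and 1.26. For Scd1, both libraries 1 stood out, with 96.4 (Tim-4low) and 34.2 CPM (Tim-4high) where the other 4 libraries had 11.8 to 15.8 CPM. These are the libraries with more B cell markers, and their part in the Scd1 values was not tested. Scd1 and Scd2 are close paralogs, as are Acat2 and Acat3, and how reads shared between them were assigned is not given in the sources used here.

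Without both no-tumor libraries 1, 16 of the 21 calls were kept, and Mvd (0.25, adjusted p = 0.322), Fdps (0.74, adjusted p = 0.0881), Fdft1 (0.72, adjusted p = 0.0668), Dhcr7 (0.33, adjusted p = 0.0632) and Srebf1 (0.22, adjusted p = 0.074) lost theirs in the edgeR test. Leaving out 1 library at a time kept 10 genes called throughout (Hmgcs1, Idi1, Sqle, Cyp51, Tm7sf2, Msmo1, Srebf2, Acaca, Elovl6 and Fads1), with the fewest calls, 12 and 13, without Tim-4low library 3 and Tim-4high library 3. A fit to these 2 groups alone called 11 and lost Mvd, Fdft1, Tm7sf2, Nsdhl, Ebp, Dhcr7, Insig1, Srebf1, Stard4 and Scd2. By correlation only, numbers were taken to pair the libraries of one condition. With that pairing as a block all 21 calls were kept and Pmvk, Acss2, Fasn, Scd1 and Fads2 were also called. In the authors' deposited table, 15 of the 21 genes passed an FDR of 0.05 in the same direction, Cyp51 with a 3.06-fold and Sqle with a 2.74-fold difference, and Mvd, Nsdhl, Ebp, Dhcr7, Insig1 and Srebf1 did not.

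Genes around the list moved in both directions in this comparison. Of 12 uptake and endosomal export genes, 1 rose and 4 fell, among them Gramd1b, an endoplasmic reticulum sterol transporter (log2 -1.02), and Msr1, a scavenger receptor (-0.95). Of 10 LXR and efflux genes, 0 rose and 3 fell, among them Abca1, the cholesterol exporter (-1.14), and Rxra, the partner receptor of LXR (-0.38). Of 15 other fatty acid synthesis genes, 1 rose, Acsl3, an acyl-CoA synthetase of the endoplasmic reticulum and lipid droplets (2.61), and 3 fell. Of 8 other sterol synthesis and SREBP processing genes, 4 rose and 2 fell. Beside these, 6 of 8 macrophage markers were lower in Tim-4low cells (26500 to 29500 against 36900 to 45700 CPM summed), and 4 of 6 monocyte markers, 2 of 6 dendritic cell markers and 5 of 15 proliferation genes were higher in Tim-4low cells, with summed dendritic cell markers of 75.8 to 159 CPM against 20.9 to 36.4 CPM and summed proliferation genes of 468 to 513 against 267 to 531 CPM. Their part in the differences was not tested.

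**Figure D2:**
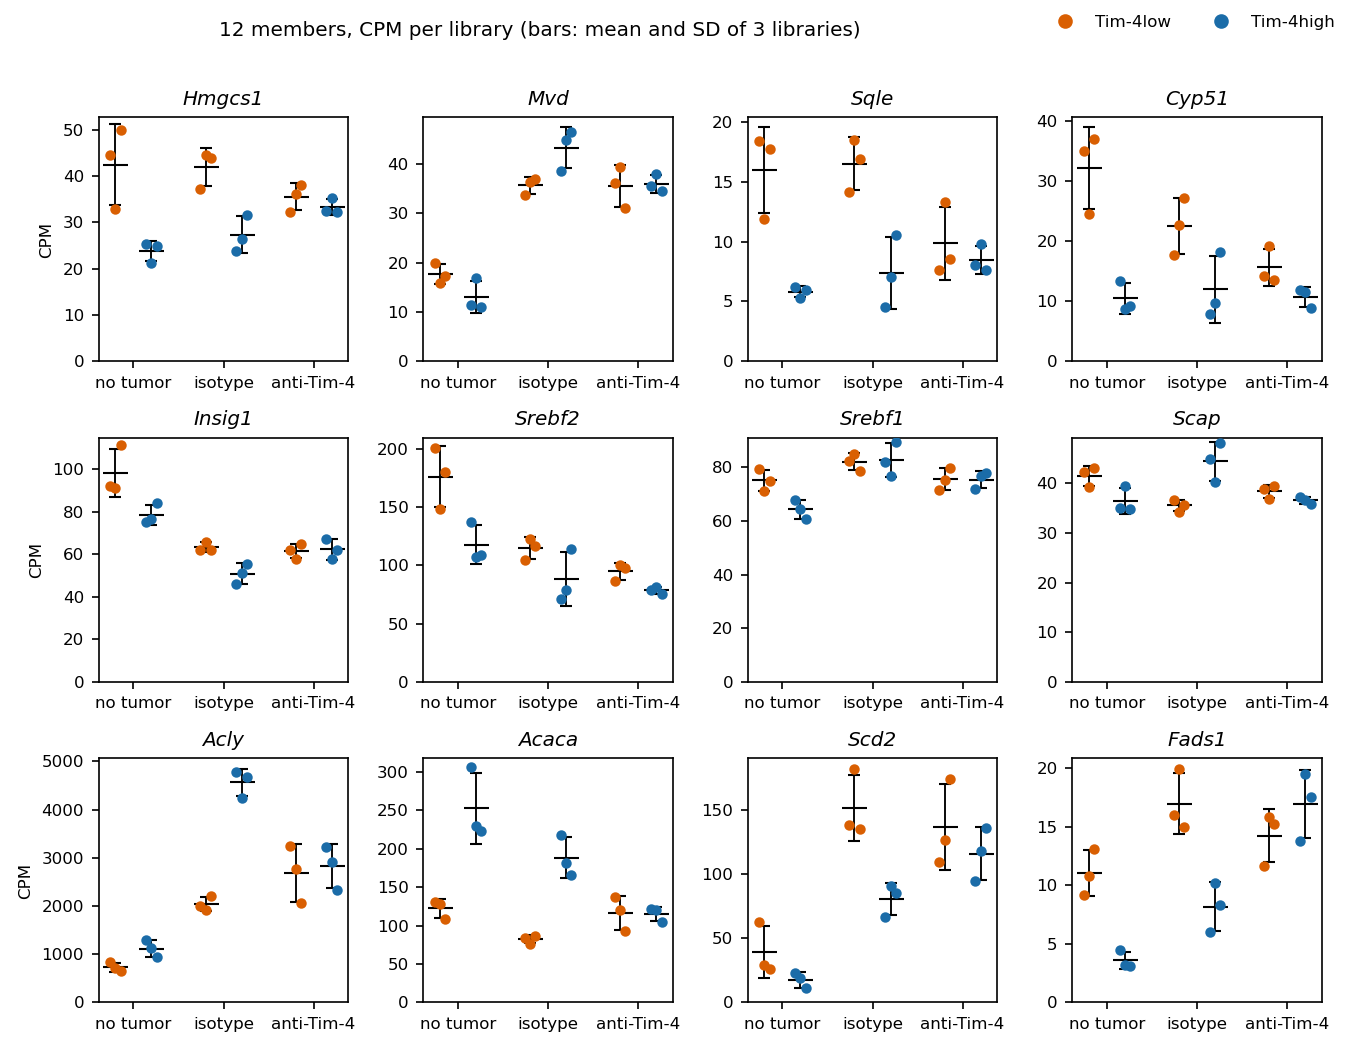
CPM of 12 of the genes in each library (orange Tim-4low, blue Tim-4high; horizontal bars give the mean and SD of 3 libraries; each vertical axis starts at 0). Sqle and Hmgcs1 are higher in Tim-4low than in Tim-4high libraries without a tumor and with isotype and overlap with anti-Tim-4, and Acly reaches 4240 to 4776 CPM in the isotype Tim-4high libraries.

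With a tumor and isotype antibody, the same pair of populations was compared. Fewer genes were called than without a tumor, and Acaca and Acly, both lower in Tim-4low cells, had the most negative changes of the list. Of the 33 genes, 9 rose and 3 fell in Tim-4low over Tim-4high, where 24.1% of all genes were called (11.3% higher, 12.9% lower). The median log2 fold change was 0.12 over the list and 0.01 over all genes. By arm, 3 of 8 mevalonate genes and 3 of 10 genes from squalene on rose, the regulators gave 1 rise and 1 fall, and the fatty acid genes gave 2 of each. Beside these, summed monocyte markers were higher in every Tim-4low library (664 to 779 against 327 to 464 CPM, with 2 of 6 markers called higher), and summed macrophage markers at 17600 to 18800 against 21500 to 22600 CPM (1 of 8 rose and 3 fell). Their part in the differences was not tested.

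Pmvk, phosphomevalonate kinase, stood at 14.87, 18.65 and 17.04 CPM in Tim-4low and 6.868, 9.673 and 11.01 CPM in Tim-4high libraries (log2 0.88, SE 0.16, adjusted p = 0.00114). Hmgcs1 stood at 37.2, 44.7 and 43.9 against 23.9, 26.4 and 31.7 CPM (log2 0.62, SE 0.14, adjusted p = 0.00434), and Sqle at 14.1, 18.5 and 16.9 against 4.57, 7.07 and 10.6 CPM (log2 1.16, SE 0.26, adjusted p = 0.00493). In all 3 of these genes every Tim-4low library was above every Tim-4high library. Fdft1 stood at 10.5, 11.4 and 13.3 against 5.83, 5.91 and 10.3 CPM (log2 0.67, SE 0.22, adjusted p = 0.0376), and Msmo1 at 19.3, 22.7 and 24.3 against 16, 17.3 and 19.1 CPM (log2 0.34, SE 0.11, adjusted p = 0.0348). Cyp51 stood at 17.8, 22.7 and 27.2 against 7.94, 9.71 and 18.3 CPM (log2 0.91, SE 0.28, adjusted p = 0.0247), and here isotype Tim-4high library 3 lay inside the Tim-4low range. That library, with raised T and NK cell markers, was the highest of its group for Sqle, Cyp51, Fdft1, Idi1 and Srebf2.

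Of the regulators, Insig1 stood at 62.1, 66.1 and 61.9 against 46.1, 51.4 and 55.5 CPM (log2 0.31, SE 0.09, adjusted p = 0.0194). Scap stood at 36.6, 34.2 and 35.7 against 44.9, 40.2 and 48.1 CPM, lower in every Tim-4low library (log2 -0.32, SE 0.07, adjusted p = 0.00363). Srebf2 stood at 104.3, 122.8 and 116.9 against 70.8, 79.2 and 114.4 CPM, overlapping through library 3 and not called (0.38, adjusted p = 0.0876). Srebf1 was level, at 82.3, 85.0 and 78.8 against 82.0, 76.7 and 89.5 CPM (-0.01, SE 0.07).

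Acly stood at 1997, 1923 and 2199 CPM in Tim-4low and 4776, 4240 and 4681 CPM in Tim-4high libraries, a separation far beyond the spread (log2 -1.16, SE 0.16, adjusted p = 0.000189, 2.24-fold lower). Acaca stood at 83.5, 76.2 and 86.7 against 218.2, 182 and 165.2 CPM (log2 -1.20, SE 0.15, adjusted p = 9.79e-05, 2.29-fold lower). Fads1 and Scd2 again went the other way, Fads1 at 15.98, 19.97 and 15 against 6.02, 10.2 and 8.32 CPM (log2 1.05, SE 0.21, adjusted p = 0.00183) and Scd2 at 138.3, 181.3 and 134.8 against 66.6, 90.7 and 84.8 CPM (log2 0.91, SE 0.31, adjusted p = 0.0416). The other fatty acid genes, Fasn, Acss2, Elovl6, Scd1 and Fads2, were not called, at -0.15, -0.26, 0.58, -0.09 and 0.92, and the 16 remaining sterol and regulator genes ran from -0.32 to 0.65.

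Hmgcs1, Pmvk, Sqle, Scap, Acly, Acaca and Fads1 kept their calls in all omissions of 1 library, and the fewest calls, 7, came without isotype Tim-4high library 1, Tim-4low library 2 or Tim-4high library 2, each of which ended the calls of Fdft1, Cyp51, Msmo1, Insig1 and Scd2 (highest adjusted p = 0.16). Without both isotype libraries 3, Msmo1 (0.33, adjusted p = 0.0973) and Scd2 (1.02, adjusted p = 0.10) lost their calls and Idi1 and Srebf2 gained one, a fit to these 2 groups alone lost Fdft1 (adjusted p = 0.0665), Cyp51 (adjusted p = 0.0619) and Msmo1 (adjusted p = 0.0513) and gained Mvd, Fdps and Ebp, and with the replicate block 18 genes were called, Idi1, Fdps, Ebp, Sc5d, Srebf2 and Fads2 in addition.

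With a tumor and anti-Tim-4, no gene of the list passed the test between populations. None was called by edgeR or by DESeq2, against 1.39% of all genes (0.542% higher, 0.849% lower), and 2, Acat2 and Ebp, had an unadjusted p under 0.05. Groups did not overlap for Fdft1, Cyp51, Srebf2, Acss2, Elovl6 and Fads2, higher in Tim-4low, or for Acat2 and Dhcr7, lower there. With 3 libraries a group some genes separate without any difference. The share of such genes over all genes is not given here, so nothing is read from these members. Log2 fold changes ran from -0.38 to 0.66 with a median of 0.07. Acly stood at 3244, 2764 and 2055 CPM in Tim-4low and 3232, 2920 and 2334 CPM in Tim-4high libraries (log2 -0.07, SE 0.16), and Acaca at 136.6, 119.9 and 93.2 against 121.7, 120.1 and 105.2 CPM (0.01, SE 0.15), nearly superposed. Sqle stood at 7.62, 13.3 and 8.56 against 8.002, 9.77 and 7.61 CPM (0.22, SE 0.26). Cyp51 stood at 14.2, 19.2 and 13.6 against 11.8, 11.5 and 8.85 CPM, apart and not called (0.55, SE 0.28, adjusted p = 0.421). Srebf2 stood at 86.82, 99.99 and 97.78 against 78.7, 81.8 and 75.4 CPM, also apart (0.27, SE 0.15, adjusted p = 0.488). A p above the threshold does not show that the populations were alike. The antibody is directed at the protein used for the sort, and Timd4 was 11.9 to 29.0 against 168.6 to 219.4 CPM in these groups.

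**Figure D3:**
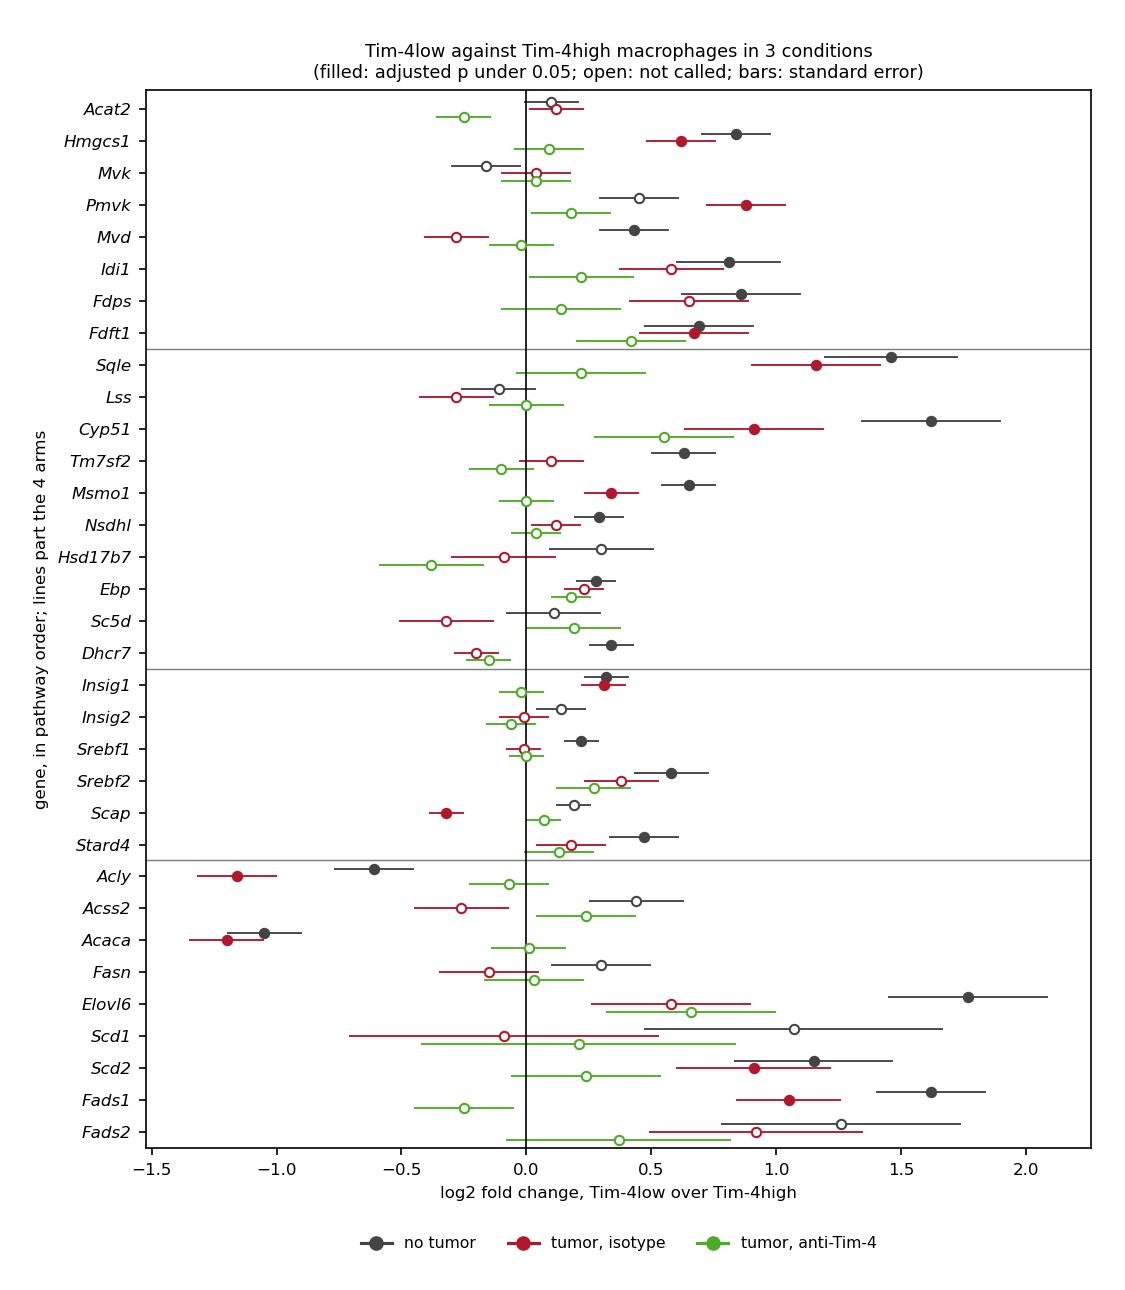
Log2 fold change of Tim-4low over Tim-4high (horizontal axis, bars show 1 standard error) for the 33 genes in mice without a tumor (grey), with tumor and isotype (red) and with tumor and anti-Tim-4 (green). Filled points passed an adjusted p of 0.05: 21 in grey, 12 in red and none in green.

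Whether these genes change with the tumor was asked in each population by setting isotype-treated tumor mice against mice without a tumor. The labels name no antibody for mice without a tumor, and no group had a tumor without an antibody. Tumor and isotype antibody therefore cannot be told apart, and a change with the tumor below means a change with both. The 2 comparisons use separate libraries, and the isotype and no-tumor groups are the same ones as above, so no count below is independent of those already given. The tumor contrast was broad: 51.5% of all genes were called in Tim-4high cells (27.3% higher, 24.1% lower) and 49.8% in Tim-4low cells (25.2% higher, 24.6% lower). Of the 33 genes, 11 rose and 3 fell in Tim-4high cells and 6 rose and 10 fell in Tim-4low cells. Both directions together, neither is a larger share than over all genes, and the rises in Tim-4high and the falls in Tim-4low cells were each somewhat above the background share of their direction. The medians were 0.19 and -0.02, against -0.01 and -0.02 over all genes.

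Acly, Scd2, Mvd, Ebp and Fads1 rose in both populations. Acly, from the values above, rose by 2.03 in Tim-4high cells (SE 0.17, adjusted p = 1.75e-07, 4.08-fold) and by 1.48 in Tim-4low cells (SE 0.16, adjusted p = 3.69e-06, 2.78-fold), with no overlap in either. Scd2 stood at 62.3, 29.1 and 26.1 CPM in Tim-4low and 22.8, 19.2 and 10.9 CPM in Tim-4high libraries without a tumor, below all 6 isotype libraries given above. Its rise was 2.19 in Tim-4high (SE 0.32, adjusted p = 4.5e-05) and 1.95 in Tim-4low cells (SE 0.32, adjusted p = 0.000113). Mvd stood at 11.4, 16.8 and 11.1 CPM without a tumor and 38.5, 44.9 and 46.4 CPM with isotype in Tim-4high cells (log2 1.73, SE 0.14, adjusted p = 1.65e-07). In Tim-4low cells Mvd stood at 19.9, 15.8 and 17.2 against 33.7, 36.3 and 36.9 CPM (log2 1.01, SE 0.14, adjusted p = 2.34e-05). Ebp stood at 37.6, 30.1 and 36.1 without a tumor and 42.6, 44.1 and 47.5 CPM with isotype in Tim-4high cells (log2 0.37, adjusted p = 0.00189), and at 40.8, 41.3 and 43.7 against 50.7, 55.1 and 51.9 CPM in Tim-4low cells (log2 0.33, adjusted p = 0.0046). Fads1 rose by 1.19 and 0.62.

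Insig1, Srebf2 and Acaca fell in both. Insig1 fell by 0.62 in Tim-4high cells (SE 0.09, adjusted p = 3.75e-05) and by 0.64 in Tim-4low cells (SE 0.09, adjusted p = 3.39e-05), and in both the highest isotype library was below the lowest library without a tumor. Srebf2 fell by 0.42 in Tim-4high cells (adjusted p = 0.0336, overlapping groups) and by 0.62 in Tim-4low cells (adjusted p = 0.00355, groups apart). Acaca fell by 0.42 (adjusted p = 0.0249) and 0.58 (adjusted p = 0.00445). Acly and Acaca, consecutive steps, thus moved in opposite directions in both populations, and Fasn, next in line, was not called in Tim-4high (-0.01) or Tim-4low cells (-0.46).

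In Tim-4high cells alone, Fdps, Tm7sf2, Nsdhl, Dhcr7, Srebf1 and Scap passed the test upwards. Dhcr7, the last reductase before cholesterol, stood at 13.6, 14.61 and 11.96 CPM without a tumor and 16.65, 18.95 and 19.75 CPM with isotype (log2 0.46, SE 0.09, adjusted p = 0.000644). Tm7sf2 rose from the values above to 5.87, 5.80 and 5.43 CPM (log2 0.65, SE 0.13, adjusted p = 0.000901), and Srebf1 by 0.36 (SE 0.07, adjusted p = 0.00049). Scap stood at 35.1, 39.4 and 34.8 against 44.9, 40.2 and 48.1 CPM (log2 0.28, SE 0.07, adjusted p = 0.00305), Fdps rose to 8.02, 10.3 and 13.1 CPM (0.78, adjusted p = 0.0145) and Nsdhl rose by 0.35 (adjusted p = 0.00833). All 6 kept their groups apart. The remaining 19 genes were not called and ran from -0.88 for Scd1 to 1.19 for Fads2.

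In Tim-4low cells, the genes that fell were spread over 3 arms. Elovl6 went from 9.28, 6.39 and 8.02 to 3.33, 3.69 and 4.29 CPM (log2 -1.07, SE 0.31, adjusted p = 0.00964). Lss, lanosterol synthase, stood at 10.3, 10.9 and 13.2 against 7.71, 7.94 and 9.85 CPM (-0.44, adjusted p = 0.0241), and Msmo1 fell by 0.28 (adjusted p = 0.0461). Stard4 fell by 0.40, Acss2, the cytosolic acetyl-CoA synthetase, by 0.60 and Scap by 0.22. Each of these genes was lower in every isotype library. Scd1 fell by 2.05 (adjusted p = 0.0126), a value that library 1 decided: its 96.4 CPM stood beside 15.8 and 14.8 CPM, and without both no-tumor libraries 1 the change was -0.58 (adjusted p = 0.157). Pmvk rose here, from 10.2, 9.43 and 10.9 to 14.87, 18.65 and 17.04 CPM (log2 0.73, SE 0.16, adjusted p = 0.00128). The other 17 genes were not called and ran from -0.52 for Cyp51 to 0.85 for Fads2.

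In Tim-4high cells 10 of the 14 calls held in all omissions of 1 library (Mvd, Tm7sf2, Ebp, Dhcr7, Insig1, Srebf1, Scap, Acly, Scd2 and Fads1), and in Tim-4low cells 9 of 16 (Pmvk, Mvd, Ebp, Insig1, Srebf2, Acly, Acaca, Elovl6 and Scd2). Without both isotype libraries 3, Fdps (0.58, adjusted p = 0.0876), Nsdhl (0.25, adjusted p = 0.0645) and Acaca (-0.34, adjusted p = 0.117) were no longer called in Tim-4high cells, and without both no-tumor libraries 1 this was so of Srebf2 (-0.29, adjusted p = 0.134) and Acaca (-0.26, adjusted p = 0.147) there and of Msmo1 (-0.31, adjusted p = 0.0582), Stard4 (-0.34, adjusted p = 0.0548), Scd1 and Fads1 (0.50, adjusted p = 0.0604) in Tim-4low cells. Fits to the compared groups alone did not call Nsdhl (adjusted p = 0.0795), Srebf2 (adjusted p = 0.102) and Scap (adjusted p = 0.0522) in Tim-4high cells or Msmo1 (adjusted p = 0.0781) and Scd1 (adjusted p = 0.0639) in Tim-4low cells.

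**Figure D4:**
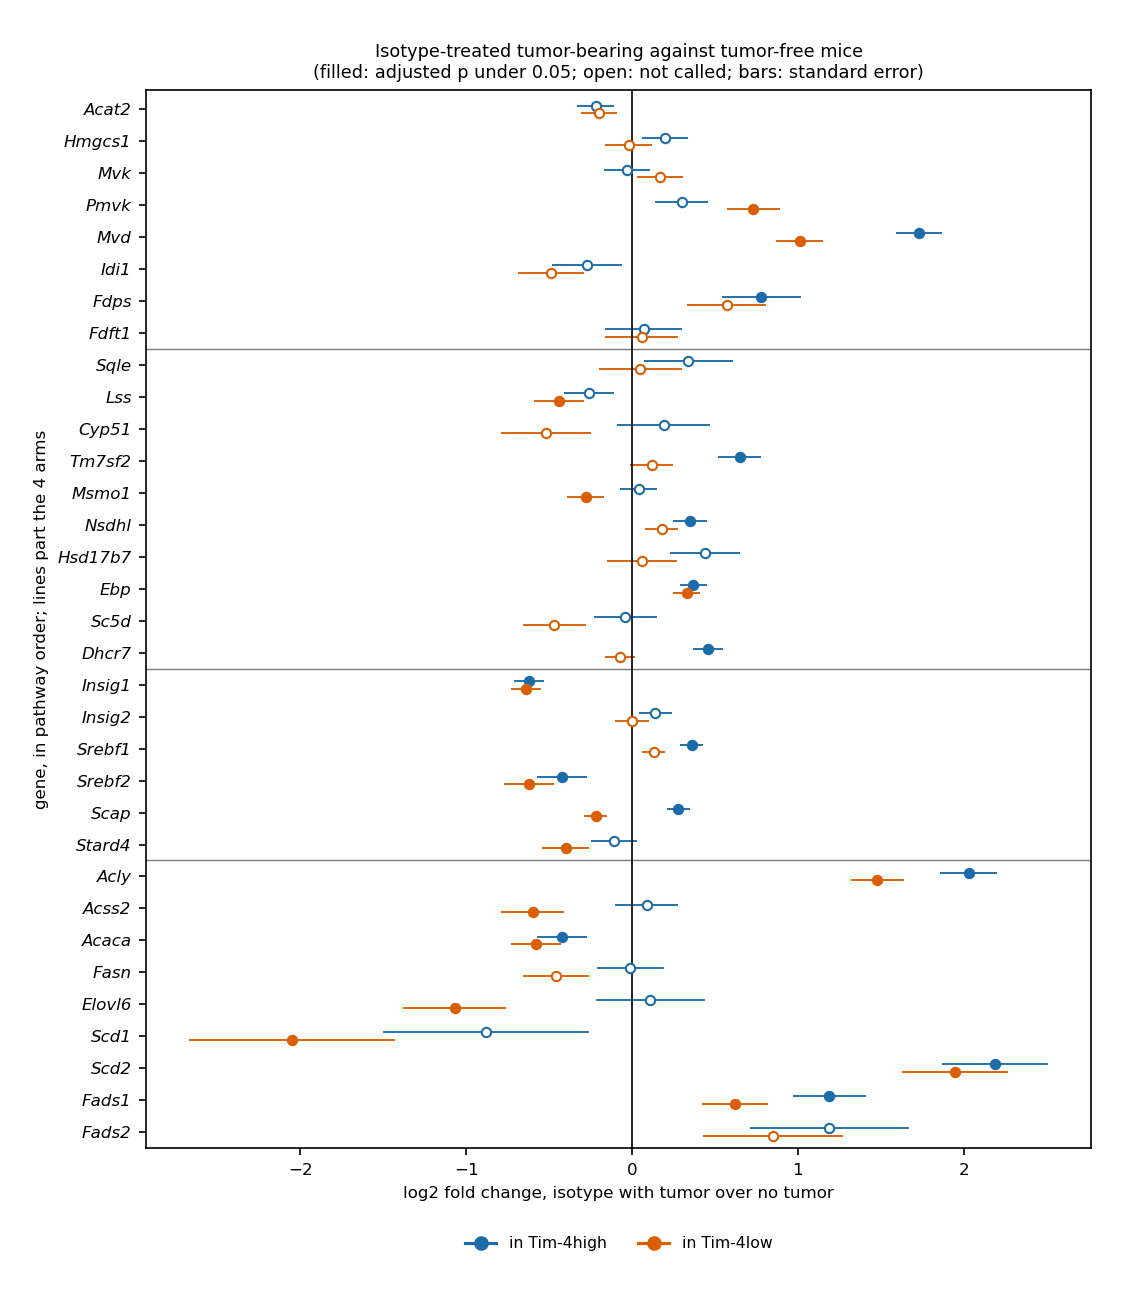
Log2 fold change of isotype-treated tumor mice over mice without a tumor (horizontal axis, bars show 1 standard error) for the 33 genes in Tim-4high (blue) and Tim-4low (orange) cells; filled points passed an adjusted p of 0.05. Acly, Scd2 and Mvd lie far to the right in both, Insig1 to the left in both, and the orange point lies left of the blue one in 30 of 33 genes.

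The tumor change differed between the populations in few of the genes. In the test of the difference itself (tumor by population), Dhcr7 (-0.53, SE 0.13, adjusted p = 0.0334) and Scap (-0.51, SE 0.10, adjusted p = 0.00944) were called, both with a lower change in Tim-4low cells, where 3.53% of all genes were called (1.32% higher, 2.21% lower). The difference was negative in 30 of the 33 genes, with a median of -0.29 against -0.02 over all genes. All 33 differences come from the same 12 libraries, so the genes do not count as separate agreements. Mvd was at -0.71 (adjusted p = 0.058). Dhcr7 lost its call without any of 7 of the 12 libraries, for example -0.47 (adjusted p = 0.0964) without isotype Tim-4high library 3, without both no-tumor libraries 1 it was at -0.52 (adjusted p = 0.0606), and without both isotype libraries 3 neither gene was called (Dhcr7 -0.43, adjusted p = 0.171; Scap -0.45, adjusted p = 0.0515). With libraries blocked by number within a condition, 8 genes were called, all lower: Mvd, Sc5d, Acly, Acss2, Fasn and Elovl6 besides Dhcr7 and Scap.

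Several transcripts of other cells and states moved with the tumor. Summed neutrophil markers went from at most 7.43 CPM in every library without a tumor to 37.4 to 264 CPM with isotype, and summed fibroblast and mesothelial markers from at most 0.814 to 9.32 to 75 CPM. Summed monocyte markers stood at 60.4 to 149 CPM without a tumor and 327 to 464 CPM with isotype in Tim-4high cells (3 of 6 rose) and at 91.1 to 300 and 664 to 779 CPM in Tim-4low cells (3 rose, 1 fell). Summed macrophage markers stood at 36900 to 45700 and 21500 to 22600 CPM in Tim-4high cells, where 4 of 8 rose and 3 fell, and at 26500 to 29500 and 17600 to 18800 CPM in Tim-4low cells, where 3 rose and 1 fell. Of the proliferation genes, 15 of 15 rose in Tim-4high and 12 of 15 in Tim-4low cells. Of the adipocyte markers, Adipoq and Cidec stayed at or below 0.105 and 0.145 CPM in every library, while Plin1, a lipid droplet coat protein, stood at 1.28 to 10.2 CPM in Tim-4high cells without a tumor and 46.0 to 64.7 CPM with isotype. Me1, the malic enzyme that supplies NADPH for fatty acid synthesis, rose by 5.46 in Tim-4high and 5.24 in Tim-4low cells. The part of these cells and states in the results was not tested.

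Genes that handle cholesterol after its synthesis also changed with the tumor. Apoe, the lipid carrier, fell by 4.42 in Tim-4high and 2.87 in Tim-4low cells, and Pltp, a phospholipid transfer protein, by 3.56 and 2.56. Abcg1, an exporter, rose by 1.49 in Tim-4low cells. This was not particular to them: in the edgeR test of the difference Abcg1 was not called (-0.35, adjusted p = 0.656), with the higher change in Tim-4high cells. Of 10 LXR and efflux genes, 2 rose and 3 fell in Tim-4high and 5 rose and 4 fell in Tim-4low cells. Ch25h, which makes 25-hydroxycholesterol, a sterol that blocks SREBP processing, stood at 0 to 0.264 CPM in the 6 libraries without a tumor and at 4.004 to 13.73 CPM in the 6 isotype libraries. Of 11 ester and lipid droplet genes, 5 rose and 1 fell in Tim-4high and 8 rose and 1 fell in Tim-4low cells, Hilpda, a lipase inhibitor of droplets, by 3.73 and 3.23. Erg28, a scaffold of the sterol demethylation enzymes, rose by 0.45 and 0.42, and Mbtps1, the protease that first cleaves SREBP, fell by 0.28 in both.

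The last question was what anti-Tim-4 did, against isotype, in tumor mice. In Tim-4high cells 1 of the 33 genes rose and 3 fell, where 7.97% of all genes were called (4.3% higher, 3.67% lower), with a median of -0.08 against 0. Fads1 went from 6.02, 10.2 and 8.32 to 13.8, 19.5 and 17.5 CPM (log2 1.05, SE 0.21, adjusted p = 0.0118). Acly went from 4776, 4240 and 4681 to 3232, 2920 and 2334 CPM (log2 -0.69, SE 0.16, adjusted p = 0.0222), and Acaca from 218.2, 182 and 165.2 to 121.7, 120.1 and 105.2 CPM (log2 -0.70, SE 0.15, adjusted p = 0.0155). Scap went from 44.9, 40.2 and 48.1 to 37.3, 36.6 and 35.9 CPM (log2 -0.28, SE 0.07, adjusted p = 0.0278). In all 4 genes the groups were apart. None of the 18 sterol enzymes was called, from -0.27 for Mvd to 0.45 for Pmvk, and Insig1 was at 0.29 (adjusted p = 0.0591), Srebf2 at -0.16 and Srebf1 at -0.13.

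Over all omissions of 1 library the log2 changes kept their direction and most of their size, from -0.80 to -0.56 for Acly, -0.79 to -0.59 for Acaca, -0.35 to -0.22 for Scap and 0.87 to 1.24 for Fads1, but the adjusted p crossed the threshold in several. All 4 calls were lost without isotype Tim-4high library 1 (adjusted p from 0.0716 to 0.103) and without anti-Tim-4 Tim-4high library 3 (0.0648 to 0.145), 3 without isotype Tim-4high library 3 and 2 without anti-Tim-4 Tim-4high library 2. Without both isotype libraries 3 Acaca alone was called, with Acly at -0.67 (adjusted p = 0.0834), Fads1 at 1.06 (adjusted p = 0.0553) and Scap at -0.22 (adjusted p = 0.136). A fit to the 2 groups alone called 8, adding Mvd, Insig1, Fasn and Scd2, and the authors' deposited table has the same 8 genes under an FDR of 0.05, Fads1 with a 2.07-fold rise and Acly and Acaca with 1.62-fold and 1.63-fold falls.

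In Tim-4low cells, none of the 33 genes was called by edgeR, where 0.325% of all genes were (0.223% higher, 0.102% lower), and 5 had an unadjusted p under 0.05. DESeq2 called 1, Acaca. It went from 83.5, 76.2 and 86.7 to 136.6, 119.9 and 93.2 CPM, higher in every anti-Tim-4 library (log2 0.51, SE 0.15, edgeR adjusted p = 0.172). Sqle went from 14.1, 18.5 and 16.9 to 7.62, 13.3 and 8.56 CPM, lower in every library (-0.75, SE 0.26, adjusted p = 0.251), and Acly from 1997, 1923 and 2199 to 3244, 2764 and 2055 CPM with overlap (0.40, SE 0.16, adjusted p = 0.336). The median was -0.12, against -0.02 over all genes.

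The antibody's change differed between the populations for 4 genes, where 2.93% of all genes were called (1.67% higher, 1.26% lower). In the same edgeR test, Acly (1.09, SE 0.23, adjusted p = 0.0293), Acaca (1.21, SE 0.21, adjusted p = 0.0207) and Scap (0.39, SE 0.10, adjusted p = 0.0459) had a higher change in Tim-4low than in Tim-4high cells, and Fads1 a lower one (-1.30, SE 0.29, adjusted p = 0.0344). Over all omissions of 1 library the differences ran from 0.93 to 1.25 for Acly, 1.08 to 1.35 for Acaca, 0.35 to 0.48 for Scap and -1.47 to -1.10 for Fads1. None of the 4 kept its call in every omission: all were lost without isotype Tim-4high library 1, isotype Tim-4low library 2, anti-Tim-4 Tim-4low library 1, or anti-Tim-4 Tim-4high library 2 or 3 (highest adjusted p = 0.14), and also without both isotype libraries 3 (0.0543 to 0.112). With libraries blocked by number within a condition all 4 held (Acly 1.08, adjusted p = 7.8e-05; Acaca 1.19, adjusted p = 0.000244; Fads1 -1.32, adjusted p = 0.00155; Scap 0.39, adjusted p = 0.0198) and 11 were called in all, adding Hmgcs1, Pmvk, Sqle, Sc5d, Insig1, Acss2 and Scd2. Beside these, with anti-Tim-4 in Tim-4high cells 4 of 8 fibroblast and mesothelial markers fell, among them Col1a1 (-2.23) and Dcn, with a summed level of 9.32 to 44.7 CPM with isotype and 4.15 to 6.41 CPM with anti-Tim-4. There also 1 of 6 neutrophil markers, Cxcr2, fell (-2.66), 1 of 8 macrophage markers, Cd68, fell (-0.40), and 3 of 15 proliferation genes rose, Mcm3, Mcm6 and Pcna (0.34, 0.48 and 0.39). Their part in the results was not tested. In the surrounding lists, Apoe, Pltp and Cyp27a1, a mitochondrial sterol hydroxylase, rose with anti-Tim-4 in Tim-4high cells by 1.26, 1.45 and 0.85, and their changes were lower in Tim-4low cells by the same test (-1.75, -1.50 and -1.04).

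**Figure D5:**
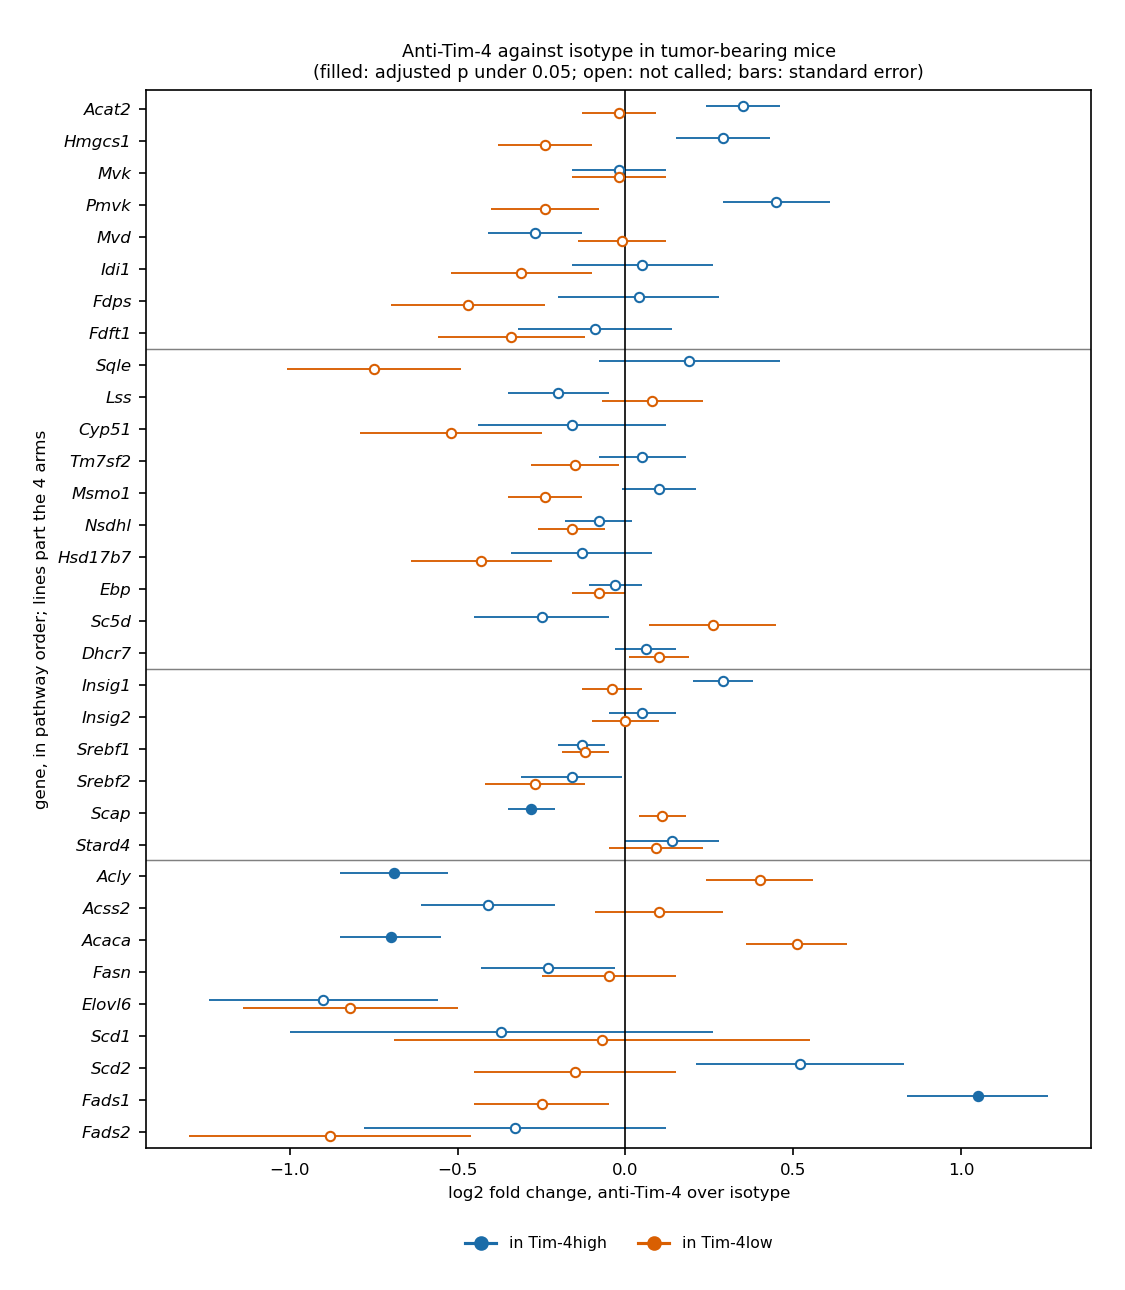
Log2 fold change of anti-Tim-4 over isotype in tumor mice (horizontal axis, bars show 1 standard error) for the 33 genes in Tim-4high (blue) and Tim-4low (orange) cells. The filled points, which passed an adjusted p of 0.05, are Fads1 on the right and Scap, Acly and Acaca on the left, all in Tim-4high cells.

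Transcripts were described without a test. Srebf1 (ENSMUSG00000020538, chr11:60199089-60222581, minus strand, mm10) has one promoter for SREBP-1a and one for SREBP-1c, whose first exons encode different amino termini. Srebf1-201, which reads the SREBP-1a exon, held a mean of 82.8% to 86.3% of the gene's transcript counts by group, and Srebf1-207, which reads the SREBP-1c exon, held 5.03% to 7.99%. Between single libraries the second ranged from 0.096% to 11.9%, wider than any difference between groups. Acaca (ENSMUSG00000020532, chr11:84129672-84401651, plus strand) was read mostly as Acaca-201, at 75.1% to 84.0% by group, and Acaca-202, which starts upstream, held 14.1% to 23.0%, most in Tim-4high cells without a tumor (20.4% to 26.5% by library). Acly (ENSMUSG00000020917, chr11:100476353-100528000, minus strand) was split between Acly-203 at 39.7% to 43.3%, Acly-201 at 36.6% to 41.6% and Acly-207 at 15.77% to 17.96% by group. Scd2 (chr19:44293674-44306864, plus strand) and Scd1 (chr19:44394455-44407879, minus strand) are neighbours, as are Fads2 (chr19:10062765-10101746, minus strand) and Fads1 (chr19:10182888-10196877, plus strand). With the tumor Scd2 rose in both populations while Scd1 rose in neither. Fads1 was called in 6 of the 9 comparisons and Fads2, at 0.118 to 1.76 CPM by library, in none. Log2 changes of Fads2 were near those of Fads1 between populations without a tumor (1.26 and 1.62) and with isotype (0.92 and 1.05). They were also near with the tumor in Tim-4high (1.19 and 1.19) and Tim-4low cells (0.85 and 0.62). This was not so for the antibody in Tim-4high cells, where Fads1 rose. There Fads2 had a mean of 0.6699 CPM with isotype and 0.5312 CPM with anti-Tim-4, with overlapping libraries. For the difference in antibody change, the Fads2 value is not given here.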

How the data were processed

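Bulk RNA-seq libraries of sorted Tim-4low and Tim-4high peritoneal macrophages (6 groups, 3 libraries each) were measured as estimated counts per gene and per transcript, in the tables deposited by the authors. Alignment with STAR to mm10 and testing with DESeq2 are recorded in the submitters' processing notes; versions, strand setting and annotation release were not given there. Gene counts were rounded to whole numbers for the tests; transcript counts served only for the shares of transcripts. Positions were matched to GENCODE M21. The authors' deposited comparison tables hold fold changes with p-values and FDR; other columns of these tables were not used.

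Genes with low counts were left out with filterByExpr (16609 tested; the 6902 left out held at most 0.0878% of a library). Library sizes were scaled by TMM, and CPM are on these sizes. Each comparison was a contrast of 1 edgeR 4.0.16 quasi-likelihood fit to all 18 libraries and 6 groups (12 residual degrees of freedom; R 4.3.3, limma 3.58.1), with Benjamini-Hochberg adjustment over all genes tested and a threshold of 0.05; all log2 fold changes, SE and adjusted p without another source come from it. The scripts were tested on simulated counts. Alternatives were RLE size factors, no filter, DESeq2 1.42.0, only the groups compared, each library left out, and a replicate block; leaving out the pairs of libraries that stood apart was chosen after seeing the data.

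The members and gene lists were chosen with earlier results of these data known. All 33 members are accounted for; those with the smallest p per arm (at most 4 per comparison), with Srebf1, Srebf2 and Insig1, were described by library, and at most 3 genes with the smallest p of each other list were named, besides marker genes and a few members and Ch25h, Me1 and Plin1 added after their values were seen. Library numbers come from the sample titles. In all 9 pairs of one condition and number, Tim-4low and Tim-4high libraries deviated together from their group means (r from 0.155 to 0.489). Across the populations of one condition, pairs of different numbers ran from -0.432 to 0.209, with 1 of 18 over 0.1. Deviations from a group mean cancel within the group, so positive same-numbered pairs make the different-numbered pairs lower on average. The different-numbered pairs are thus no separate support for the pairing. Between conditions same-numbered r ran from -0.294 to 0.179, so there the number is only a name. Single values overlap, as pairs of one population with neither condition nor number in common reached 0.401. The pairing within a condition is thus inferred from correlation only.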

Additional observations from a re-analysis of the deposited data

Results flagged for a closer look

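The change with the tumor differed between Tim-4low and Tim-4high cells, by the edgeR test of the difference itself, for Dhcr7 (-0.53 on the log2 scale) and Scap (-0.51), both lower in Tim-4low cells. The change with anti-Tim-4 differed for Scap (0.39), Acly (1.09) and Acaca (1.21), all higher in Tim-4low cells, and for Fads1 (-1.30), lower there. Both tests use the same isotype libraries, so the Scap values are not independent of each other. Over all genes, 3.53% were called for the difference in tumor change and 2.93% for the difference in antibody change. Scap kept its tumor call in every omission of 1 library, Dhcr7 did not, and no antibody call held in every omission. Without both isotype libraries 3 none of these differences was called.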

How the results depend on the processing

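Each comparison's count of called genes, out of 33, was recomputed under every alternative. RLE size factors changed no count. Without a filter on low counts Dhcr7 lost its call for the difference in tumor change between populations, which left 1. Nsdhl lost its call between populations without a tumor, Msmo1 for the tumor in Tim-4low cells, and Scap for anti-Tim-4 in Tim-4high cells and the difference in antibody change. DESeq2 called 1 for anti-Tim-4 in Tim-4low cells. For the tumor in Tim-4low cells it lost Msmo1 and added Idi1, Fdps and Sc5d. Its other changes were added calls, such as Idi1 and Fdps between populations with isotype. Fits to the compared groups alone called 11 for the populations without a tumor, 8 for anti-Tim-4 in Tim-4high cells and 1 for the difference in tumor change; with isotype they called as many genes between populations as the fit to all libraries but not the same ones, 9 being shared. With the replicate block, which pairs libraries within a condition, 8 were called for the difference in tumor change and 11 for the difference in antibody change; for the comparisons between conditions, where numbers do not pair, it added Pmvk and Insig1 for anti-Tim-4 in Tim-4high cells and no other call. Without both isotype libraries 3, 1 was called for anti-Tim-4 in Tim-4high cells, 0 for the difference in tumor change and 0 for the difference in antibody change. Leaving out 1 library gave 12 to 21 calls between populations without a tumor, 7 to 16 with isotype, 0 to 4 for anti-Tim-4 in Tim-4high cells, 1 to 4 for the difference in tumor change and 0 to 4 for the difference in antibody change. No called gene reversed: of 73 calls over the 9 comparisons, 40 held in all settings other than leaving out 1 library, and 37 in all omissions of 1 library. Why these counts moved was not tested. The number of libraries, 3 a group, limits the precision.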
